A study of Homo sapiens with 24 samples.

Results

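The genes described here are those of the human mitochondrial genome, taken as every row of the raw count matrix whose gene name starts with MT-. There were 37 such genes of 58051 in the matrix: 2 ribosomal RNA (rRNA) genes, 13 messenger genes and 22 transfer RNA (tRNA) genes. They were counted in 24 libraries of LUHMES cells, a human mesencephalic line differentiated into neurons of dopaminergic type with tetracycline, cAMP and GDNF. A vehicle group received 1% DMSO, and 7 toxicant groups received 5 µM MS275 (etinostat in the labels), 5 µM Paraquat, 5 µM MPP (1-methyl-4-phenylpyridinium), 2 µM Ziram (zinc dimethyldithiocarbamate), 1 µM Rotenone, 1 µM 6-HD (6-hydroxydopamine) or 0.5 µM Methyl_mercury (the chloride). Toxicant stocks were made in DMSO, exposure lasted 6 h, and each group had 3 libraries. All groups are 1 cell line in 1 culture system, and the series counts its libraries as biological samples in triplicate without saying whether they came from separate differentiations, so p-values measure the spread between these libraries, which may be technical.

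The mitochondrial genome is a small circular DNA copied into RNA from both strands as long transcripts. In the usual account, enzymes cut out the tRNAs that lie between the other genes, which frees the rRNAs and messengers, and most messengers then receive short poly(A) tails. The messengers encode core subunits of complex I (MT-ND genes), complex III (MT-CYB), cytochrome c oxidase (MT-CO genes) and ATP synthase (MT-ATP genes), and the rRNAs form the mitochondrial ribosome. Dopaminergic neurons are known for their sensitivity to complex I inhibitors such as rotenone and MPP, the latter of which enters through the dopamine transporter.

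RNA was selected for poly(A) and then passed through 2 rounds of a ribosomal depletion kit designed to remove cytosolic and mitochondrial rRNA. The levels of the rRNAs and tRNAs are therefore what remained after both steps, and how each step treated each molecule was not measured. In bulk libraries, fewer mitochondria and less RNA in each cannot be told apart. The libraries held between 9688650 and 46863890 counts. The first DMSO library was the shallowest of its group (14290671 counts) and stood apart from the other DMSO libraries in several values given below. The neuronal markers summed to 5435 ± 659 CPM in DMSO (SD, n = 3), SLC6A3 and TH were counted at 635 and 50.8 CPM, and FOXA2, another dopaminergic marker, had 0 counts in every library. Astrocyte markers summed to 2.01 CPM in DMSO. In MPP, 2 of 8 tested dopaminergic markers were lower, TH at 31.6 ± 1.45 CPM and DDC at 1.06 ± 0.24 CPM against 2.78 ± 0.53 CPM in DMSO, 1 of 8 neuronal and 1 of 4 endothelial and fibroblast markers were higher, and no astrocyte, oligodendrocyte, microglia or cycling marker passed (edgeR; 5.77% of all genes were higher and 5.02% lower in MPP). Their summed levels in DMSO and MPP were 649 to 768 and 744 to 886 CPM for the dopaminergic, 4884 to 6165 and 4699 to 5512 CPM for the neuronal, and 95.6 to 107 and 115 to 133 CPM for the endothelial and fibroblast markers. The part of these markers in the results was not tested. CPM values are counts per 1000000 counts of the library, here after scaling of the library totals by the trimmed mean of M values (TMM).

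The 3 tRNAs that carried nearly all tRNA counts are shown because the fall of MT-TP in MPP is one of the findings. They are the tRNAs for proline, cysteine and tyrosine, and the capitals mark the anticodon. The sequences are the GENCODE 29 transcripts on GRCh38, written 5′ to 3′. All 3 lie on the minus strand of the mitochondrial chromosome, MT-TP at chrM:15956-16023, MT-TC at chrM:5761-5826 and MT-TY at chrM:5826-5891.
MT-TP: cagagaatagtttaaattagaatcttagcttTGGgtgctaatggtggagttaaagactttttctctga
MT-TC: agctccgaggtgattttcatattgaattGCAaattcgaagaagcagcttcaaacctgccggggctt
MT-TY: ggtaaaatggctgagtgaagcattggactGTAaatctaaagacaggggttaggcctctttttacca

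The junction of MT-ATP6 and MT-CO3 is shown because these neighbouring messengers went opposite ways in MPP. They are a pair with no tRNA between them and share 1 base in the annotation. The window runs over chrM:9187-9226 on the plus strand, and capitals mark the first 20 bases of MT-CO3.
MT-ATP6/MT-CO3: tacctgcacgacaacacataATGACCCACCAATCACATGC

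All 13 messengers and both rRNAs were counted in every library. Over the 24 libraries the rRNAs took 9975199 counts, the messengers 1592234 and the tRNAs 6459. Of the 22 tRNA genes, 10 had at least 1 count and 12 had none, which over the libraries of a group allows at most 0.0281 to 0.0641 CPM (a floor of 3 counts, counting error only). MT-TP, MT-TY and MT-TC held 97.9% of all tRNA counts. The 6 tRNA genes with at least 10 bases free of annotated genes on one side (MT-TF, MT-TN, MT-TC, MT-TY, MT-TK and MT-TP) held 6400 of these counts, and the 16 others held 59. The sources used here do not state how reads over a tRNA and its neighbour were assigned, nor whether strand was used. Without strand, reads of a gene and of RNA from the opposite strand cannot be told apart.

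The expression filter kept 18852 genes for the test, among them 18 of the 37: both rRNAs, all messengers, and MT-TP, MT-TC and MT-TY. In 16 of these 18 every library of every group was above the filter's level of 0.424 CPM. The exceptions were MT-TC and MT-TY, whose libraries were all above it in 4 and 6 of the 8 groups and never so in MPP, so their place among the tested genes rests on groups where they were higher. The 7 comparisons with DMSO share the same 3 DMSO libraries.

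In DMSO the level per kilobase of gene ran from MT-RNR2, the large rRNA, at 7113 CPM per kb, through MT-CO3 (1997), MT-RNR1, the small rRNA (1506), MT-CO1 (555), MT-CO2 (238) and MT-ND3 (122), down to MT-ND2 (12.0) and MT-ND6 (9.37). In MPP, MT-RNR1 (7000 CPM per kb) stood above MT-CO3 (1189), MT-ND4L moved from rank 10 to rank 6 of 15, and MT-ND3 moved from rank 6 to rank 11. MT-RNR2, MT-CO1 and MT-CO2 held ranks 1, 4 and 5 in all 8 groups.

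**Figure D1:**
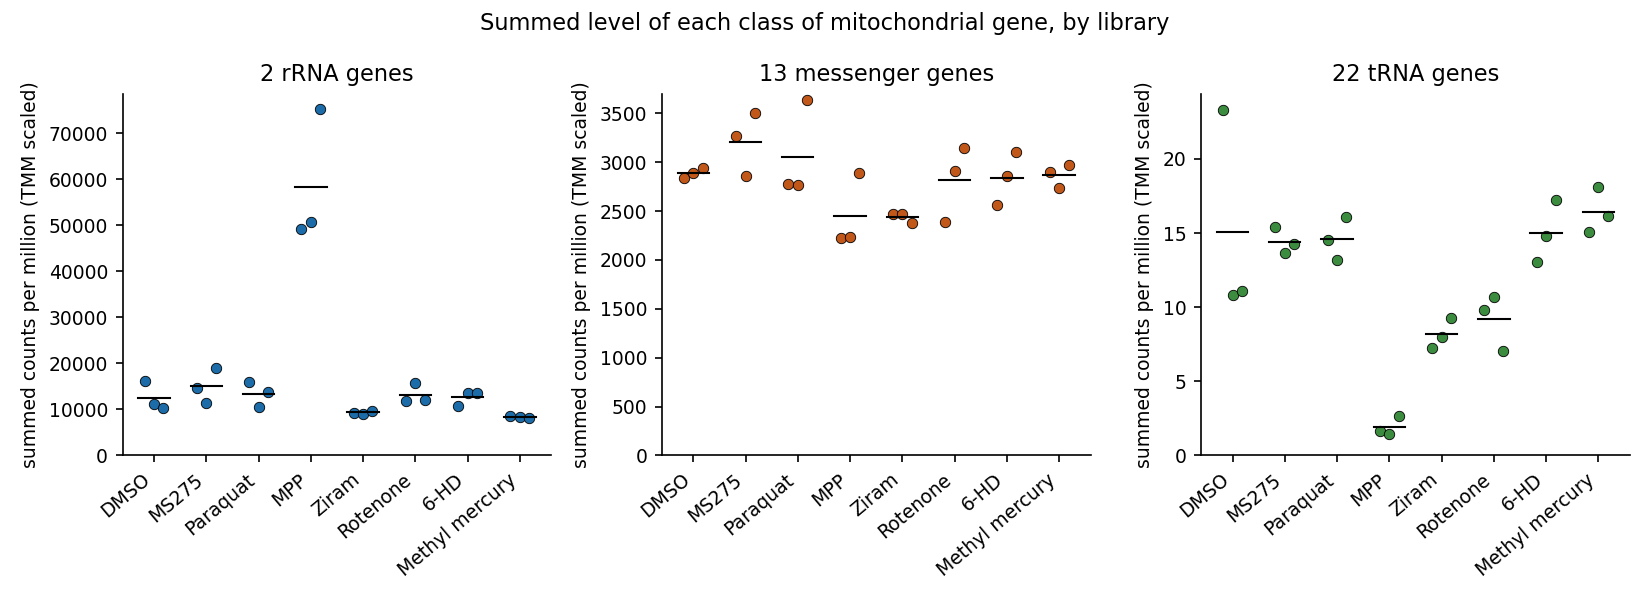
Summed TMM-scaled CPM of the 2 rRNA, 13 messenger and 22 tRNA genes, with 1 point per library and a line at each group's mean. The 3 MPP libraries lie above all others for rRNA (49164 to 75247 CPM) and below all others for tRNA (1.48 to 2.69 CPM). For messengers the MPP libraries lie between 2221 and 2893 CPM, and the highest of them overlaps the other groups.

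The classes separated in MPP. Mitochondrial rRNA was 1.59%, 1.11% and 1.05% of all counts in the 3 DMSO libraries and 4.69%, 4.80% and 6.91% in the 3 MPP libraries. Across the other 18 toxicant libraries and DMSO the share lay between 0.815% and 1.93%, so no MPP library overlapped them. Summed messengers stood at 2893 ± 50.9 CPM in DMSO and 2449 ± 384 CPM in MPP, and the groups overlapped, since MPP replicate 3 (2893 CPM) lay among the DMSO libraries. Summed tRNA was 23.3, 10.8 and 11.1 CPM in DMSO against 1.68, 1.48 and 2.69 CPM in MPP. On the log2 scale the MPP classes differed from DMSO by 2.22 for rRNA, -0.25 for messengers and -2.90 for tRNA.

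Ratios within a library do not depend on how libraries are scaled. There were 5.68, 3.84 and 3.51 rRNA counts per messenger count in DMSO and 22.1, 22.7 and 26.0 in MPP. The tRNA counts per 1000 messenger counts were 8.20, 3.74 and 3.76 in DMSO and 0.757, 0.661 and 0.930 in MPP. The highest DMSO value of both ratios came from replicate 1. No test was run on the class sums.

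In MPP, 17 of the 18 tested mitochondrial genes passed the threshold (edgeR quasi-likelihood test, adjusted p under 0.05), 11 higher and 6 lower, against 10.8% of all 18852 genes tested (2034 genes; 5.77% higher and 5.02% lower). The 11 were both rRNAs and 9 messengers: MT-ND1, MT-ND2, MT-CO2, MT-ATP8, MT-ATP6, MT-ND4L, MT-ND4, MT-ND5 and MT-CYB. The 6 lower genes were MT-CO1, MT-CO3, MT-ND3, MT-TP, MT-TC and MT-TY. The place of MT-TC and MT-TY among the tested genes rests on groups where they were higher, DMSO included. Their calls as lower are therefore no support, here and wherever MPP is compared below. MT-ND6, a complex I subunit and the sole messenger on the minus strand, did not pass. The median log2 fold change of all genes in this comparison was 0.00.

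**Figure D2:**
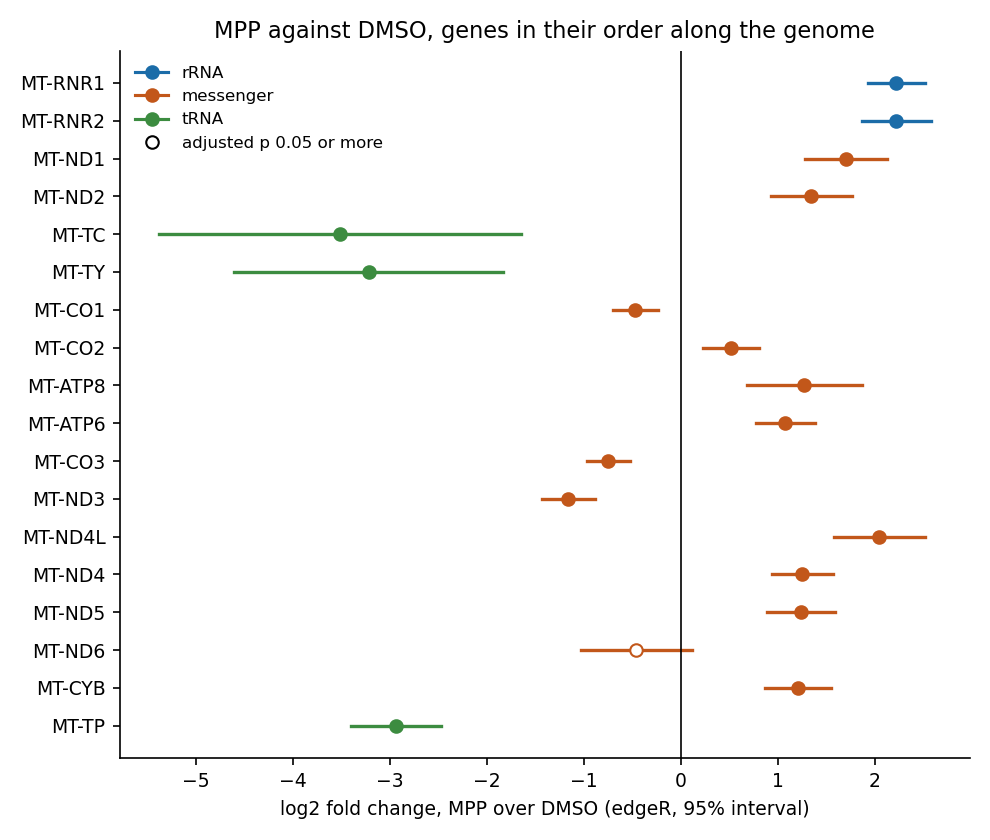
Log2 fold change of MPP over DMSO for the 18 tested genes, top to bottom in their order along the genome, with the 95% interval of the edgeR fit and an open point where the adjusted p was 0.05 or more. Both rRNAs lie at 2.22, neighbours such as MT-ATP6 (1.08) and MT-CO3 (-0.75) lie on opposite sides of 0, and the 3 tRNAs lie at -2.93 or lower.

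MT-RNR2, the large rRNA, was 14409, 9843 and 9015 CPM in DMSO and 43361, 44987 and 66760 CPM in MPP. MT-RNR1, the small rRNA, was 1733, 1254 and 1322 CPM in DMSO and 5802, 5746 and 8486 CPM in MPP. Every MPP library was above every DMSO library for both. The log2 fold changes were 2.22 ± 0.17 (SE) for MT-RNR2 and 2.22 ± 0.14 for MT-RNR1, with edgeR adjusted p-values of 3.23e-10 and 6.44e-12. The rRNAs moved together: MT-RNR2 counts per MT-RNR1 count were 7.66 ± 0.77 (SD, n = 3) in DMSO and 7.72 ± 0.22 in MPP, and ranged from 6.82 to 8.83 over all 24 libraries.

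Among the complex I messengers, MT-ND4L rose most, with 9.53, 12.0 and 11.8 CPM in DMSO and 38.9, 46.6 and 53.2 CPM in MPP (log2 fold change 2.05 ± 0.23, edgeR adjusted p = 2.79e-07). MT-ND1 was 15.7, 17.3 and 18.6 CPM in DMSO and 52.6, 51.5 and 64.8 CPM in MPP (1.70 ± 0.21, adjusted p = 1.12e-06). MT-ND2, MT-ND4 and MT-ND5 rose by 1.34, 1.25 and 1.24 on the log2 scale. MT-ND3 went the other way, from 44.2, 43.4 and 39.5 CPM to 17.8, 16.4 and 22.9 CPM (-1.16 ± 0.13, edgeR adjusted p = 5.07e-07). MT-ND6 was 5.19, 4.84 and 4.73 CPM in DMSO and 2.51, 3.39 and 4.96 CPM in MPP, and its groups overlapped (-0.46, 95% interval -1.03 to 0.12, adjusted p = 0.337).

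Complex I messengers encoded near each other differed in direction. The ratio of MT-ND3 to MT-ND4L counts, genes separated by 1 tRNA, was 4.63, 3.62 and 3.35 in DMSO and 0.457, 0.351 and 0.430 in MPP. In the 21 other libraries it lay between 1.91 and 5.47. MT-ND4L and MT-ND4 overlap by 7 bases, and MT-ND4 counts per MT-ND4L count were 6.34 ± 0.42 in DMSO and 3.65 ± 0.32 in MPP, without overlap.

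The cytochrome c oxidase messengers, the 3 most abundant messengers per kilobase, were also split. MT-CO3 was 1561, 1562 and 1574 CPM in DMSO and 858, 868 and 1071 CPM in MPP (log2 fold change -0.75 ± 0.11, edgeR adjusted p = 1.73e-05). MT-CO1 was 846, 863 and 860 CPM in DMSO and 552, 568 and 737 CPM in MPP (-0.47 ± 0.11, adjusted p = 0.00626). MT-CO2 was 129, 167 and 192 CPM in DMSO and 198, 204 and 298 CPM in MPP (0.52 ± 0.14, edgeR adjusted p = 0.0140). The MT-CO1 call was lost without MPP replicate 1 or 2 (highest adjusted p = 0.0515) and the MT-CO2 call without DMSO replicate 1 or MPP replicate 3 (log2 fold changes 0.37 and 0.30, adjusted p = 0.139 and 0.196).

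The ATP synthase messengers and MT-CYB, the cytochrome b of complex III, rose. MT-ATP6 was 37.6, 34.3 and 37.9 CPM in DMSO and 72.6, 67.4 and 92.0 CPM in MPP (1.08 ± 0.15, edgeR adjusted p = 8.04e-06). MT-ATP8, which overlaps MT-ATP6 by 46 bases, rose by 1.27 on the log2 scale and MT-CYB by 1.20. At the junction printed above, MT-CO3 counts per MT-ATP6 count were 41.5, 45.5 and 41.5 in DMSO and 11.8, 12.9 and 11.6 in MPP. The other 18 toxicant libraries held this ratio between 32.1 and 59.7.

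**Figure D3:**
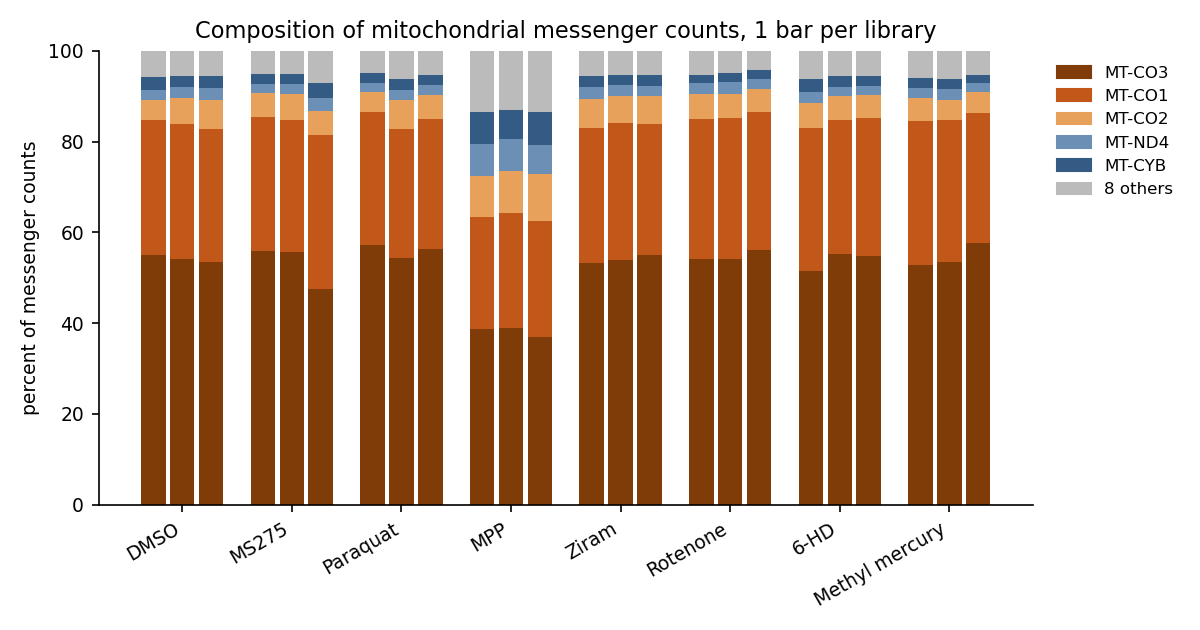
Percent of mitochondrial messenger counts taken by MT-CO3, MT-CO1, MT-CO2, MT-ND4, MT-CYB and the 8 other messengers, 1 bar per library. MT-CO1 and MT-CO3 together took 83.7% on average in DMSO and 63.4% in MPP, and between 81.4% and 86.4% in every library outside MPP.

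The summed messenger level and the count of genes thus differ in direction in MPP. MT-CO1 and MT-CO3 took 84.7%, 83.9% and 82.7% of messenger counts in DMSO and 63.5%, 64.3% and 62.5% in MPP. The 11 other messengers took the remainder, 16.3% ± 1.0 in DMSO and 36.6% ± 0.92 in MPP. The mean of the 13 log2 levels was higher in MPP by 0.67, while the log2 of their sum was lower by 0.25. Over the 13 messengers the MPP log2 fold change and the DMSO level per kilobase had a Spearman rho of -0.63. In Rotenone the rho was 0.61, and in the remaining toxicants it ran from -0.29 to 0.33. These are descriptions over genes that share each library and share the DMSO values.

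The tRNAs fell. MT-TP was 17.2, 8.56 and 9.87 CPM in DMSO and 1.52, 1.22 and 1.90 CPM in MPP, from 46, 34 and 36 counts in the MPP libraries (log2 fold change -2.93 ± 0.23, edgeR adjusted p = 3.00e-10). Without DMSO replicate 1 the change was -2.60. MT-TY totalled 99 counts over the DMSO libraries and 13 over the MPP libraries (-3.21 ± 0.68, adjusted p = 0.00176). MT-TC totalled 69 and 7 counts (-3.51 ± 0.91, edgeR adjusted p = 0.0107), and its call was lost without DMSO replicate 1 or MPP replicate 1 or 2 (adjusted p = 0.102, 0.0587 and 0.0772).

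MT-TP and MT-CYB are neighbours on opposite strands with 1 other tRNA between them. There were 222, 126 and 130 MT-TP counts per 1000 MT-CYB counts in DMSO and 9.74, 8.60 and 8.95 in MPP. By annotated strand, the 14 tested genes of the plus strand comprised 11 that rose and 3 that fell in MPP. The 4 of the minus strand comprised 3 that fell and MT-ND6, which did not pass. These 3 minus-strand genes are all of the tested tRNAs, so for them class and strand cannot be told apart. The ratio of MT-ND5 to MT-ND6 counts, adjacent genes on opposite strands, was 7.42 ± 0.125 in DMSO and 25.0 ± 6.04 in MPP.

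**Figure D4:**
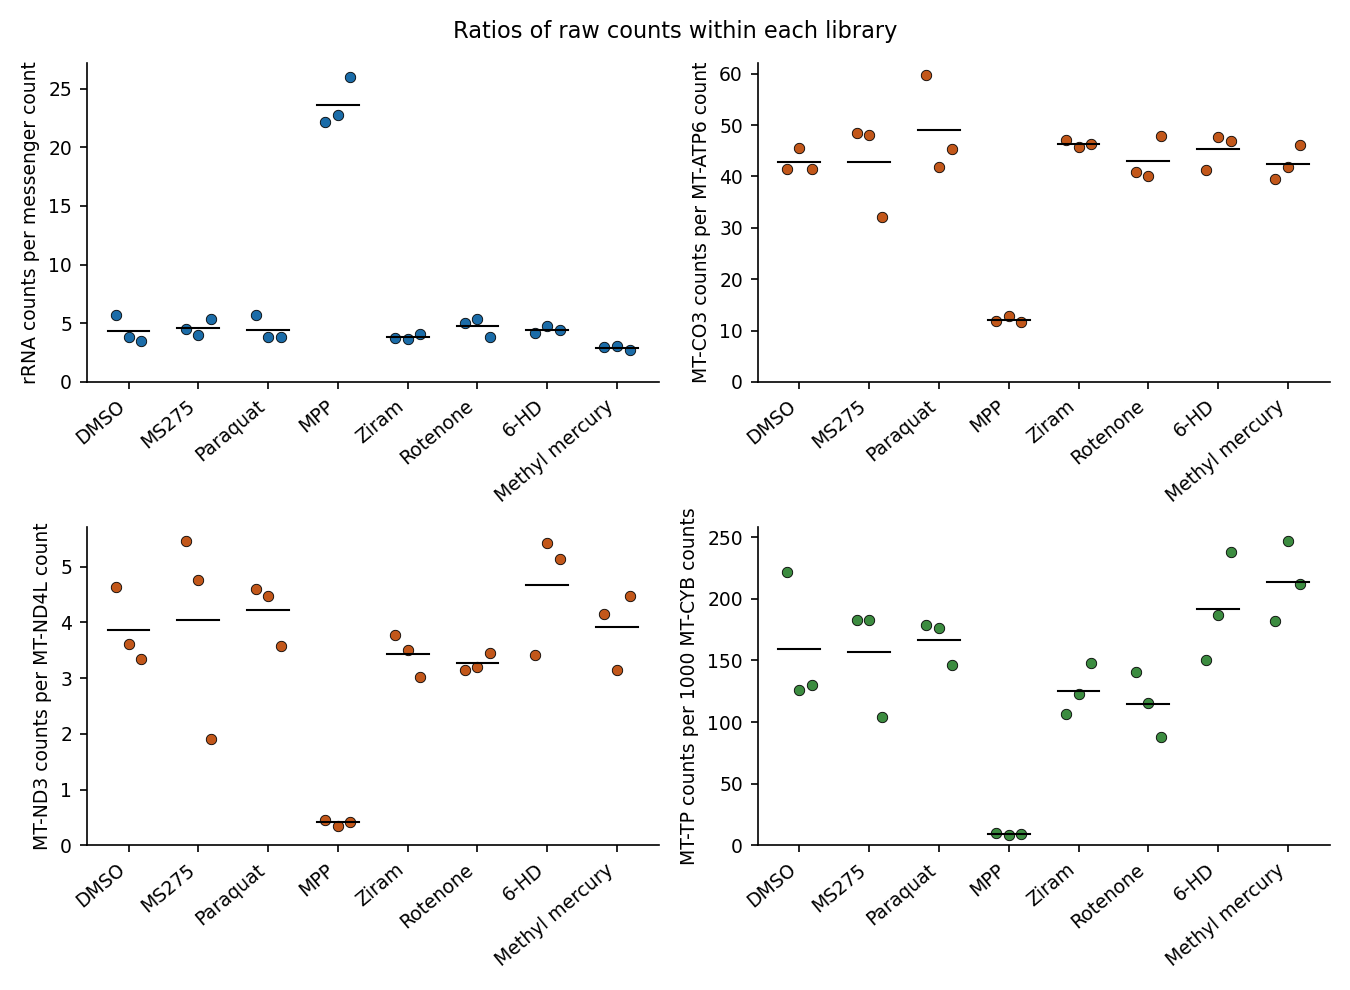
Ratios of raw counts within each library for rRNA to messengers, MT-CO3 to MT-ATP6, MT-ND3 to MT-ND4L and MT-TP to MT-CYB, with 1 point per library and a line at the group mean. The MPP libraries stand apart from the 21 others in all 4 panels.

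Tested directly against the other toxicants, MPP differed from each. Of the 18 genes, 17 passed against MS275 (50.8% of all genes), 17 against Paraquat (11%), 14 against Ziram (14.5%), 16 against Rotenone (6.74%), 17 against 6-HD (13.7%) and 17 against Methyl_mercury (16.6%). The same 11 genes were higher and MT-CO3, MT-ND3 and MT-TP were lower in all 6 comparisons. MT-RNR2 was higher by 1.96 to 2.82 on the log2 scale, and its highest edgeR adjusted p was 1.27e-09. MT-CO3 was lower, with log2 differences of -0.88 to -0.50, and MT-TP with -3.07 to -2.03. MT-ND6 passed in none of the 6, MT-CO1 and MT-TY missed against Ziram, and MT-TC missed against Ziram and Rotenone.

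Paraquat and MPP are both quaternary pyridinium compounds and were given at the same 5 µM for 6 h. MT-RNR2 was 11881 ± 2485 CPM in Paraquat against 51703 ± 13065 CPM in MPP (log2 difference 2.12 ± 0.17, edgeR adjusted p = 8.25e-10). MT-TP was 11.4 ± 0.30 CPM against 1.55 ± 0.34 CPM (-2.90 ± 0.23, adjusted p = 3.93e-10). MT-ND6 was the 1 tested gene without a difference that passed (-0.39, adjusted p = 0.430). Rotenone and MPP both inhibit complex I but were given at 1 and 5 µM. MT-ND1 stood at 10.1 ± 2.72 CPM in Rotenone and 56.3 ± 7.37 CPM in MPP, on either side of the 17.2 ± 1.44 CPM of DMSO.

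In Rotenone, 2 of the 18 genes passed, both lower, against 5.52% of all genes tested (2.76% lower). MT-TP was 6.39, 6.61 and 5.66 CPM, below all DMSO libraries (log2 fold change -0.91 ± 0.21, edgeR adjusted p = 0.00673). MT-ND1 was 7.11, 10.9 and 12.4 CPM against 15.7, 17.3 and 18.6 CPM in DMSO (-0.81 ± 0.23, adjusted p = 0.0305). Neither call held in every fit with 1 library left out. MT-TP did not pass without DMSO replicate 1 (-0.57, adjusted p = 0.0954), and MT-ND1 did not pass without DMSO replicate 2 or 3 or Rotenone replicate 1 (-0.80, -0.74 and -0.56, adjusted p = 0.0867, 0.112 and 0.136), and neither passed with the 2 groups fitted alone. Summed dopaminergic markers stood at 893 to 1238 CPM in Rotenone against 649 to 768 CPM in DMSO, with 1 of 8 higher in the test (SLC6A3, 1047 ± 181 CPM). Of the other markers, RBFOX3 (1 of 8 neuronal) and MBP (1 of 3 oligodendrocyte) were higher, and summed oligodendrocyte markers stood at 138 to 165 against 127 to 141 CPM. The part of these markers in the Rotenone result was not tested.

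Other mitochondrial genes lay below DMSO in Rotenone without passing the test. MT-ND5 was 22.9, 27.4 and 25.7 CPM against 38.1, 35.6 and 35.8 CPM in DMSO (-0.53 ± 0.18, edgeR adjusted p = 0.0755). MT-ND2 stood at -0.66 (adjusted p = 0.0810) and MT-CYB at -0.41 (adjusted p = 0.157), each with no overlap between the libraries. In all, 7 genes were lower without overlap, against 11.3% of all genes. MT-RNR1, MT-RNR2, MT-CO1 and MT-CO3 overlapped DMSO, with log2 differences between -0.04 and 0.10. By class, summed rRNA and summed messengers overlapped DMSO (0.10 and -0.05). Summed tRNA was 9.78, 10.7 and 7.05 CPM against 23.3, 10.8 and 11.1 CPM in DMSO, lower without overlap (-0.64). Without DMSO replicate 1 the tRNA difference was -0.28. MT-ND1 took 0.298%, 0.375% and 0.393% of messenger counts in Rotenone and 0.553%, 0.597% and 0.631% in DMSO, without overlap; this share was not tested.

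In Ziram no mitochondrial gene passed (edgeR, 0.53% of all genes), and 11 of the 18 had an unadjusted p under 0.05 (6.49% of all genes). DESeq2 called 1, MT-TP, and 184 of all 18852 genes. All 18 log2 fold changes were negative, from -1.65 to -0.13 with a median of -0.35. For 14 genes every Ziram library was below every DMSO library, against 10.2% of all genes. MT-TC and MT-TY were tested through groups where they were higher, DMSO but not Ziram included, so their lower values are no support. Both are among the 11, MT-TC is among the 14, and the lowest value is from this pair. The messengers alone ran from -0.46 to -0.13, 6 with an unadjusted p under 0.05 and 10 without overlap. MT-CO3 was 1315, 1333 and 1305 CPM against 1561, 1562 and 1574 CPM in DMSO (-0.25 ± 0.11, edgeR adjusted p = 0.636). MT-TP was 6.63, 6.78 and 8.13 CPM (-0.70 ± 0.19, adjusted p = 0.118). With Ziram and DMSO fitted alone 9 genes passed, both rRNAs, MT-ND1, MT-CO1, MT-ATP6, MT-CO3, MT-ND3, MT-CYB and MT-TP. More genes passed in that fit generally, 586 of all 17143 tested. Without DMSO replicate 1, MT-RNR2 moved from -0.42 to -0.19 and MT-TP to -0.36, while MT-ND1 went from -0.46 to -0.52.

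All 3 classes were lower in Ziram, with log2 differences of -0.40 for rRNA, -0.24 for messengers and -0.79 for tRNA, each without overlap with DMSO. Without DMSO replicate 1 the rRNA difference was -0.20 and the tRNA difference -0.43. The ratio of rRNA to messengers stayed within the DMSO range, at 3.73, 3.65 and 4.11. MT-CO1 and MT-CO3 together took 83.1%, 84.0% and 84.0% of messenger counts, also within the DMSO range.

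In Methyl_mercury the rRNAs lay below DMSO without passing the test. MT-RNR2 was 7517, 7391 and 7133 CPM, below all DMSO libraries (-0.59 ± 0.17), and MT-RNR1 was 1031, 1025 and 1017 CPM (-0.49 ± 0.14). Neither passed over all genes (edgeR adjusted p = 0.132 for both; 0.286% of all genes passed), 3 of the 18 genes had an unadjusted p under 0.05 (11.5% of all genes), and DESeq2 called none. Both passed with the 2 groups fitted alone, where 73 of all 16426 genes passed. Summed messengers were 2866 ± 120 CPM against 2893 ± 50.9 CPM, so the rRNA counts per messenger count, 2.95, 3.08 and 2.75, lay below those of every DMSO library. MT-RNR1, MT-RNR2, MT-ND1 and MT-CYB were lower than DMSO without overlap, against 9.95% of all genes. Without DMSO replicate 1 the MT-RNR2 difference was -0.36.

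**Figure D5:**
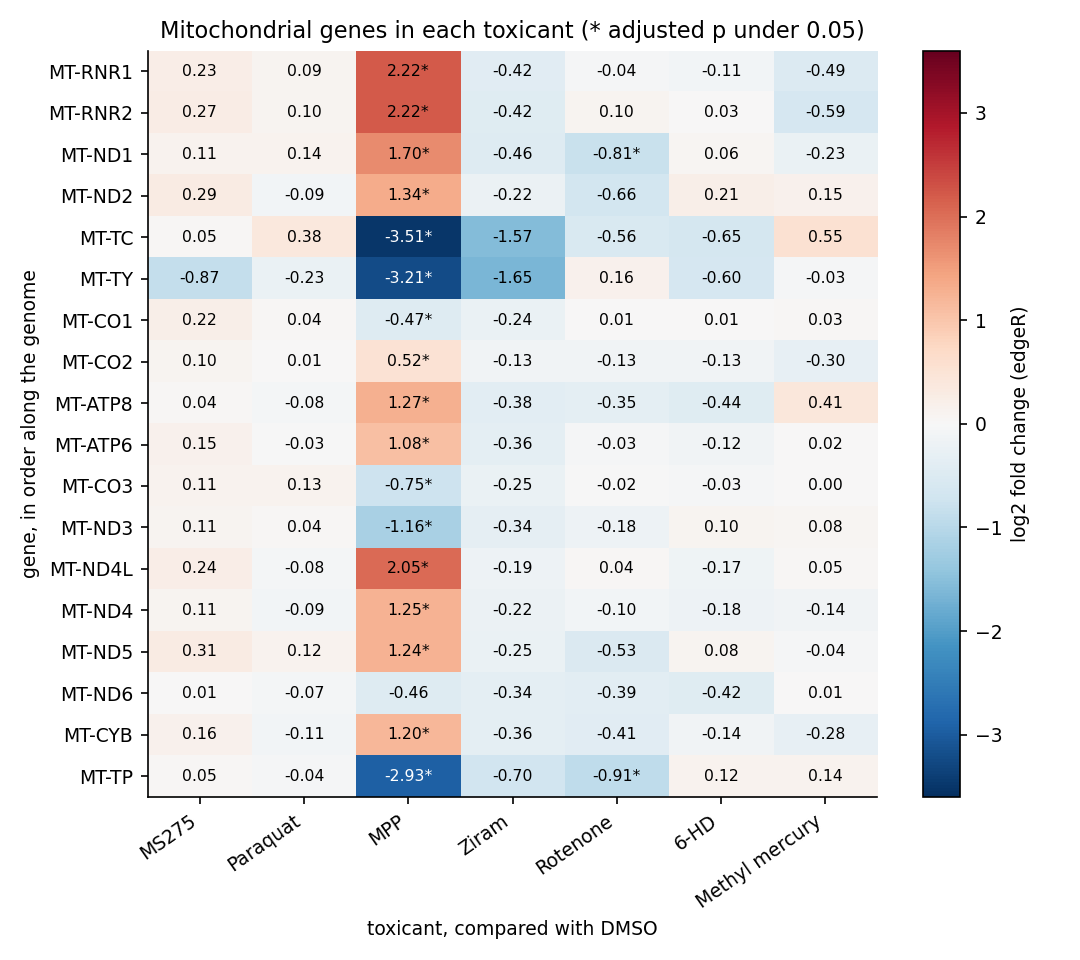
Log2 fold change against DMSO of the 18 tested genes (rows, in genome order) in each of 7 toxicants (columns), with an asterisk where the edgeR adjusted p was under 0.05. MPP holds 17 asterisks, Rotenone 2 (MT-ND1 and MT-TP), and the others none.

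With MS275, an inhibitor of histone deacetylases, 43.2% of all genes passed the threshold but none of the 18 mitochondrial genes did (edgeR). None had an unadjusted p under 0.05 either (50% of all genes), and DESeq2 called none. MT-CO3 was the 1 gene whose libraries did not overlap DMSO, higher at 1694 ± 120 CPM, against 28.1% of all genes. MT-RNR2 was 13042, 10092 and 16863 CPM (log2 fold change 0.27, 95% interval -0.08 to 0.61) and MT-CO1 was 966, 833 and 1189 CPM (0.22, -0.01 to 0.45). Several markers of other cell types were higher in MS275, where 3798 of all 18852 genes were higher and 4338 lower. All 3 tested astrocyte markers passed, with the list's sum at 8.22 to 11.1 CPM against 1.49 to 2.99 CPM in DMSO. So did 3 of 4 endothelial and fibroblast markers, with the sum at 267 to 405 against 95.6 to 107 CPM. Of the other lists, 2 of 3 oligodendrocyte, 1 of 2 microglia and 1 of 8 neuronal markers were higher. Cycling markers went the other way, with 2 of 4 lower and 0 higher. For the dopaminergic markers 5 of 8 were higher and 1 lower, and their sum was 1037 to 1249 against 649 to 768 CPM. The part of these markers in the mitochondrial values was not tested. The third MS275 library stood apart: MT-CYB was 119 CPM there against 69.8 and 60.6 CPM, and MT-ND4L 22.5 CPM against 9.71 and 8.57 CPM. MT-CO3 counts per MT-ATP6 count were 32.1 in that library and 48.5 and 48.1 in the others, the lowest value outside MPP, and its MT-ND3 to MT-ND4L ratio of 1.91 was also the lowest outside MPP. Between 0 and 4 of 19 genes passed as single libraries were left out. The 4 passed without MS275 replicate 2, where 6949 of all 19565 genes passed. Without DMSO replicate 1, where 7201 of all 19782 genes passed, the 2 were both rRNAs. Their log2 fold changes were 0.49 for MT-RNR2 (edgeR adjusted p = 0.0236) and 0.38 for MT-RNR1 (edgeR adjusted p = 0.0377).

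Paraquat and 6-HD left the mitochondrial rRNAs and summed messengers near DMSO. With Paraquat no gene of the genome passed (0% of all genes), and with 6-HD none did (0.0106%). In both, none of the 18 had an unadjusted p under 0.05 (0.965% and 5.7% of all genes) and DESeq2 called none. For MT-RNR2 the 95% interval ran from -0.24 to 0.44 in Paraquat and from -0.32 to 0.37 in 6-HD, so changes the size of that in MPP lay outside both. Summed messengers were 3059 ± 497 CPM in Paraquat and 2843 ± 270 CPM in 6-HD. The tested tRNAs were measured less closely. Their log2 fold changes ran from -0.23 to 0.38 in Paraquat (median SE 0.56) and from -0.65 to 0.12 in 6-HD (median SE 0.58). MT-ND6 was the 1 gene without overlap, lower in 6-HD at 3.19, 3.78 and 4.12 CPM (-0.42, edgeR adjusted p = 0.910), against 7.13% of all genes.

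Several values of the libraries moved with these results. In 6 of the 8 groups the shallowest library had the highest rRNA share, and over the 21 libraries outside MPP the library total and the rRNA share had a Spearman rho of -0.63, given as a description. DMSO replicate 1 was highest of its group in MT-RNR2, MT-TP and RN7SL2, the RNA of the signal recognition particle, which stood at 1018 CPM there against 605 and 648 CPM. Without this library the MPP change of MT-RNR2 was 2.45.

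No tested gene among the other ribosomal and non-polyadenylated RNAs passed as higher in MPP (edgeR). Of 2157 such rows, 18 were tested and none passed in either direction (10.8% of all genes did). An unadjusted p under 0.05 was found for 3 of them (4542 of all 18852 genes), and DESeq2 called 1. Their summed level was 624 to 1050 CPM in DMSO and 439 to 597 CPM in MPP (means 780 and 537 CPM). Nearly all of it was RN7SL2, whose near copy RN7SL1 had 0 counts. RN7SL2 stood at 757 ± 227 and 519 ± 83.2 CPM (log2 difference -0.54, edgeR adjusted p = 0.0608). The sum therefore says little about ribosomal RNA. In Methyl_mercury RN7SL2 fell to 395 ± 113 CPM (-0.94, edgeR adjusted p = 0.0207), beside the lower rRNAs of that group, and its part in that result was not tested.

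Reads of nuclear copies of mitochondrial genes can be hard to tell from those of the originals. Of 405 such rows 300 had 0 counts everywhere, and 6 were tested. MTATP6P1, a nuclear copy of part of the genome including MT-ATP6, rose in MPP from 4.18 ± 0.50 to 9.68 ± 1.40 CPM (edgeR adjusted p = 0.00175), and in each other toxicant none of the 6 passed, at most 1 had an unadjusted p under 0.05, and DESeq2 called none. MT-ATP6 itself stood at 34.3 to 37.9 CPM in the DMSO libraries and 67.4 to 92.0 CPM in the MPP libraries, and also rose. Whether reads of MTATP6P1 and MT-ATP6 were assigned to each other was not tested. All copies together summed to 10.8 ± 1.96 CPM in DMSO and 18.5 ± 4.12 CPM in MPP. The mitochondrial messengers summed to 2893 and 2449 CPM, most of it MT-CO1 and MT-CO3.

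The nuclear genes that make and process mitochondrial RNA were taken from 3 lists, and their counts stand beside the 10.8% of all genes that passed in MPP (5.77% higher, 5.02% lower). Of 15 transcription and replication genes tested, 2 rose in MPP, POLG, the DNA polymerase (log2 fold change 0.49, edgeR adjusted p = 0.0158), and TOP1MT, a topoisomerase (0.52, adjusted p = 0.0221). POLRMT, the RNA polymerase, and TFAM did not pass (0.11 and 0.02). Of 26 processing and stability genes, 3 rose (TRIT1, LRPPRC and TRMU) and 2 fell (PTCD3 and TRMT10C, a subunit of the enzyme that cuts tRNA 5′ ends, -0.31, adjusted p = 0.0473). None of 14 ribosome assembly genes passed in MPP (edgeR), 2 had an unadjusted p under 0.05, and DESeq2 called 1. The medians of the 3 lists in MPP were 0.09, 0.04 and -0.09, and that of all genes 0.00.

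In MS275 the lists stand beside 43.2% of all genes, 3798 of 18852 higher and 4338 lower. Of the processing genes 18 of 26 fell and 1 rose, and those that fell included SUPV3L1, an RNA helicase of the degradosome (-0.91, edgeR adjusted p = 1.66e-08), and ELAC2, which cuts tRNA 3′ ends (-0.74, adjusted p = 4.14e-08). TFB2M, an initiation factor, fell by 0.89 and TFAM by 0.45 on the log2 scale, 2 of the 4 transcription genes of 15 that passed, all lower. Of 14 ribosome assembly genes 4 passed, all lower. Both of these counts are near the share of all genes that were lower in MS275. In Rotenone 2 of the 26 processing genes fell (2.76% of all genes did), FASTKD5, needed for messengers without flanking tRNAs (-0.74, edgeR adjusted p = 2.17e-05), and ELAC2 (-0.29, adjusted p = 0.0432). In Paraquat, Ziram, 6-HD and Methyl_mercury no gene of the 3 lists passed in edgeR. No more than 3 genes of a list had an unadjusted p under 0.05 there, and DESeq2 called 1 gene, a transcription and replication gene in Methyl_mercury.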

How the data were processed

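Per the labels' protocols, poly(A) RNA of LUHMES neurons exposed for 6 h was depleted of ribosomal RNA in 2 rounds and made into TruSeq libraries. The submitters' processing notes name STAR, GRCh38, HTSeq and DESeq. Tool versions, annotation, strandedness and how reads over more than 1 gene or locus were handled were not given in the sources used here. Raw counts per gene and a normalized signal for 24 libraries were deposited by the authors, and 100% of the deposited signal values returned to the raw counts within 0.01, so the counts were used. The 266 rows without a name held 0.00492% of counts.

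The whole count table was fitted with edgeR 4.0.16 (TMM scaling, default filter with a minimum count of 10, 18852 genes kept, 1 coefficient per group, 16 residual degrees of freedom, quasi-likelihood F test, Benjamini-Hochberg adjustment over all genes, threshold 0.05). Each toxicant was compared with DMSO and MPP with each other toxicant. Alternatives were DESeq2 1.42.0, other scalings, no filter and a stricter filter (minimum count 50), the 2 groups alone, a replicate block and single libraries left out. All MT- genes could be named; from each other list, up to 4 genes per comparison with the smallest adjusted p under 0.05, or up to 2 of the most abundant where none passed. POLRMT, TFAM and TRMT10C in MPP and RN7SL1 are named outside that rule, after their values were seen. Positions and sequences came from GENCODE 29, in which all 37 genes matched. The fit was tested on simulated data. The members and lists were chosen with earlier results of these data known. No 2 libraries of a group agreed within sampling noise.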

Additional observations from a re-analysis of the deposited data

How the results depend on the processing

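Against DMSO, between 15 and 17 mitochondrial genes passed in MPP under the alternatives run. Of the 35 class differences, which have no test, 18 changed sign under at least 1 alternative, among them summed messengers in MPP and summed tRNA in 6-HD, and the largest of the 18 was 0.25 in size. Taking the mean of the members' log2 values in place of the log2 of their sum gave 0.67 for messengers in MPP, 1.55 for the ratio of rRNA to messengers and -3.83 for that of tRNA to messengers, and -0.28 for messengers in both Ziram and Rotenone. It also gave -0.67 for tRNA in 6-HD and -0.43 for its ratio to messengers, a mean over genes of very different depth. Summed messengers in Ziram stood at -0.20 as a share of the raw total and -0.20 as a share of the total without mitochondrial genes. With no expression filter 25 members were tested, and 2 passed in MS275 (7816 of all 38200 genes) and 3 in Ziram (160 of all). In Rotenone 5 passed (1007 of all) and in Methyl_mercury 2 (249 of all). The stricter filter gave 1 in MS275 (7373 of all 14023 genes). With 2 groups fitted alone 9 passed in Ziram, 0 in Rotenone and 2 in Methyl_mercury. Over all genes 586 of 17143, 211 of 15808 and 73 of 16426 passed in these fits. DESeq2 called 1 in Ziram (184 of all 18852 genes). The cause of these differences was not tested. As single libraries were left out, the number ranged from 0 to 4 in MS275 and from 1 to 3 in Rotenone, where the spread is pooled over all groups. The 4 stood beside 6949 of all 19565 genes and the 3 beside 898 of all 19710. With a replicate block 17 passed in MPP and 2 in Rotenone against DMSO. Over all 13 comparisons 1 call was lost and none gained, that of MT-TC in MPP against 6-HD (edgeR adjusted p = 0.0391 without and 0.0527 with the block). Same-numbered libraries did not deviate together (correlations from -0.225 to 0.223, median -0.00932, over 84 pairs), and 4 of 24 libraries correlated best with their own number, so the numbers are not read as pairs. Depth limits the tRNAs: MT-TC rested on 7 counts and MT-TY on 13 over the MPP libraries.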
